A study of Mus musculus with 14 samples.

Results

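The genes Pdgfra, Pdgfrb, Fap, Pdpn, Acta2 and Vim, which are widely used to recognise fibroblasts, were followed through bulk 3′ end RNA sequencing of sCAFs and natural killer (NK) cells. They were taken from a list of names, not by a threshold on their level. All 6 of 6 were among the 12235 genes listed for the sCAFs, and 1 of the 6, Vim, was among the 10210 genes listed for the NK cells. In the sCAFs the 6 genes fell into 3 tiers. Vim was the gene with the third highest mean level, the receptors Pdgfra and Pdgfrb lay above the median listed gene, and Acta2, Pdpn and Fap lay at a few counts per library.

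CAFs are the cancer-associated fibroblasts of a tumour's stroma, and the labels use sCAF for the subset sorted here without spelling out the first letter. The 3 sCAF libraries came from tumours grown in female BALB/c mice of 8 weeks after injection of 100000 4T1 cells that carry green fluorescent protein (GFP) into the mammary fat pad. The 4T1 line is an established mouse mammary tumour line that serves as a model of triple-negative disease. The sCAFs were taken as EPCAM-GFP-CD45-CD31-PDPN-. Cells with detected EPCAM, GFP, CD45 (blood cells), CD31 (endothelial cells) or podoplanin were thus gated out, and no fibroblast antigen was selected for. Carcinoma cells without detected EPCAM and GFP would pass this gate, and their share was not tested. The NK libraries, taken as GFP-EPCAM-CD45+CD3-CD31-CD14-NKp46+, came from such tumours (4 libraries), from spleens of mice that carried such a tumour (4 libraries) and from spleens of healthy mice without injected cells (3 libraries). All mice were of the same strain, with no transgene named. The tumour tissue was freed with collagenase A and DNase for 20 min at 37 °C, whereas spleens were crushed and freed of red cells on ice. The replicates are called independent in the series text, but no label says which animals or pools they came from, so p-values measure the spread between these libraries.

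Fibroblasts make and anchor the fibrous matrix of a tissue, and no single gene marks all of them. PDGFRα and PDGFRβ are receptor tyrosine kinases for platelet-derived growth factors. PDGFRα marks many tissue fibroblasts, and PDGFRβ is shared by fibroblasts and by the mural cells (pericytes and smooth muscle cells) that wrap blood vessels. FAP is a surface serine protease, podoplanin a surface glycoprotein, and α-smooth muscle actin, encoded by Acta2, the contractile actin of smooth muscle and of activated fibroblasts known as myofibroblasts. Vimentin, encoded by Vim, is the intermediate filament protein of mesenchymal cells, and it is also made by leukocytes and by carcinoma cells that have lost epithelial features.

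Levels are given as CPM, which are counts scaled so that the listed genes of every library share the same total, with exact Clopper-Pearson 95% intervals that cover counting error only. The libraries read transcript 3′ ends, so CPM were not divided by transcript length. Total counts were 2230475, 1318067 and 1331861 in sCAF replicates 1 to 3 and ran from 559688 to 1966963 in the NK libraries. A limit of 3 counts, which a count of 0 allows, corresponded to 1.35 to 2.28 CPM in the sCAF libraries. The median listed gene had a mean of 19.3 CPM there. Across 7490 genes, which are not independent replicates, replicate 3 correlated less with the others (r = 0.942 and 0.948) than replicates 1 and 2 did with each other (r = 0.968). Results that rest on replicate 3 are given with and without it.

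Pdgfra (chromosome 5, 75152292 to 75198215, plus strand, GRCm38) had 137, 53 and 113 counts in sCAF replicates 1 to 3. These correspond to 61.4 CPM (51.6 to 72.6), 40.2 CPM (30.1 to 52.6) and 84.8 CPM (69.9 to 102). The interval of replicate 3 overlapped that of replicate 1 and lay above that of replicate 2. The mean was 62.2 ± 22.3 CPM (SD, n = 3), which put the gene at rank 3052 of 12235, directly beside Jak3 and Hspa14. Its rank was 2996, 4139 and 2344 in the single libraries.

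Pdgfrb (chromosome 18, 61045150 to 61085061, plus strand) had 115, 53 and 289 counts. Its level was 51.6 CPM (42.6 to 61.9) in replicate 1, 40.2 CPM (30.1 to 52.6) in replicate 2 and 217 CPM (193 to 244) in replicate 3. Replicates 1 and 2 thus overlapped in their counting intervals, and replicate 3 lay far above both. The mean was 103 ± 99.0 CPM (SD, n = 3) at rank 1871, and without replicate 3 it was 45.9 CPM at rank 3785. Its rank was 3442, 4139 and 824 in the single libraries.

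The order of the receptors depended on the library. The ratio of Pdgfrb to Pdgfra counts was 0.839 (0.649 to 1.08) in replicate 1 and 1.00 (0.670 to 1.49) in replicate 2, so counting error did not separate the receptors there. In replicate 3 the ratio was 2.56 (2.05 to 3.21). For coefficients of variation, CPM were recomputed on the totals of 7490 genes kept by a filter on low counts, scaled by edgeR's TMM factors. That of Pdgfrb over the 3 libraries, 0.948, was above that of 99.9% of these genes. Pdgfra, at 0.346, exceeded 87.5% of those genes.

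**Figure D1:**
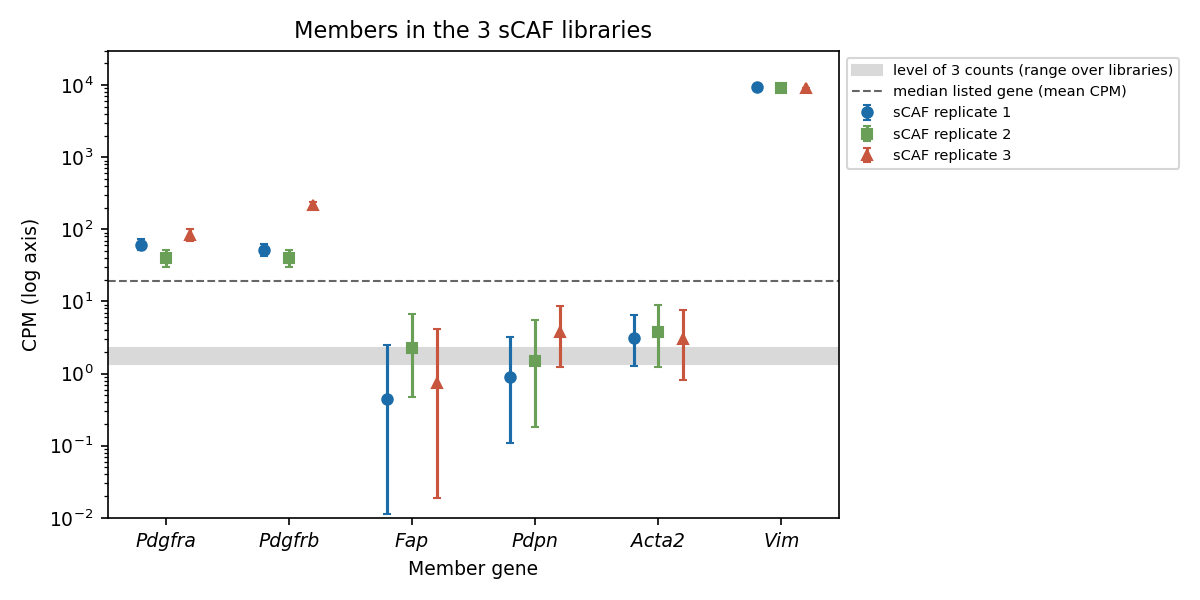
Level of each of the 6 genes in the 3 sCAF libraries, in CPM on a log axis, with exact 95% counting intervals as bars. Vim lies between 9033 and 9502 CPM, the receptors lie above the dashed line of the median listed gene (19.3 CPM), and the intervals of Fap, Pdpn and Acta2 reach into or below the grey band of 3 counts.

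Fap (chromosome 2, 62500943 to 62574075, minus strand) had 1, 3 and 1 counts, or 0.448, 2.28 and 0.751 CPM. Every library was at or below 3 counts. The mean was 1.16 ± 0.980 CPM (SD, n = 3) at rank 10654 (0.600 CPM without replicate 2), and the 5 counts of all 3 libraries together gave 1.02 CPM (0.333 to 2.39). The transcript was therefore barely detected at this depth, and its spread between libraries cannot be read.

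Pdpn (chromosome 4, 143267431 to 143299564, minus strand) had 2, 2 and 5 counts, or 0.897, 1.52 and 3.75 CPM, with wide and overlapping intervals. The mean was 2.06 ± 1.5 CPM (SD, n = 3) at rank 10164 (1.21 CPM without replicate 3), and the 9 pooled counts gave 1.84 CPM (0.843 to 3.50). Since cells with podoplanin on their surface were gated out, a low Pdpn level follows the choice of cells and is no finding about them.

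Acta2 (chromosome 19, 34241090 to 34255590, minus strand) had 7, 5 and 4 counts, or 3.14, 3.79 and 3.00 CPM. The libraries overlapped, and all 3 exceeded 3 counts. The mean was 3.31 ± 0.423 CPM (SD, n = 3) at rank 9523, and the 16 pooled counts gave 3.28 CPM (1.87 to 5.32). Pdgfra counts exceeded Acta2 counts 19.6-fold (9.25 to 49.6), 10.6-fold (4.27 to 34.0) and 28.3-fold (10.7 to 105) in replicates 1 to 3. Between Acta2 and Pdpn, Pdpn and Fap, and Acta2 and Fap, the interval of the ratio of counts held 1 in each of the 3 libraries, so no single library resolved the order of the lowest 3 genes. Acta2 had more counts than Fap in 3 of 3 libraries, and 16 against 5 in all. The muscle actins have near-identical coding sequences, and how shared reads were counted is not given in the sources used here. In the GENCODE M21 annotation no exon of another gene overlapped the last 500 bases of any of the 6 genes on either strand.

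Vim (chromosome 2, 13573927 to 13582826, plus strand) had 21193, 12048 and 12031 counts. Its level was 9502 CPM (9375 to 9630), 9141 CPM (8979 to 9305) and 9033 CPM (8873 to 9195) in replicates 1 to 3, or 0.95%, 0.914% and 0.903% of the counts of a library. It ranked 3, 3 and 1 of 12235 genes. Its mean of 9225 ± 245 CPM (SD, n = 3) came after those of H2-D1, a classical MHC class I heavy chain (9805 CPM), and Fth1, the ferritin heavy chain (9451 CPM). Its coefficient of variation over the libraries, on the TMM-scaled CPM used for the receptors, was 0.0374, above that of 3.72% of the 7490 genes. That measure includes counting noise, which is small for a gene of 12031 counts or more. The biological coefficient of variation that edgeR estimates, 0.207, was above that of 71.8% of genes and above the median of 0.189. With 3 libraries edgeR draws that estimate toward values shared over genes, whose common value was 0.204. It therefore says little about the spread of Vim itself, and the steadiness of Vim was not tested. Vim counts exceeded Pdgfrb counts 184-fold and 227-fold in replicates 1 and 2 and 41.6-fold in replicate 3.

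The high Pdgfrb level of replicate 3 was set beside lists of genes of vessel-associated and contractile cells. All 8 of 8 listed mural cell genes were highest in replicate 3, and 7 of 8 exceeded both other libraries there by more than 2-fold. Over all genes with a count, 40.1% were highest in replicate 3 and 6.35% exceeded both others by more than 2-fold. The summed level of the mural list was 59.2, 105 and 450 CPM in replicates 1 to 3. Rgs5, a regulator of G protein signalling that marks pericytes, was at 11.2, 22.8 and 165 CPM. Notch3, a Notch receptor of mural cells, was at 8.97, 25.0 and 72.1 CPM. Des, the muscle intermediate filament desmin, was at 9.86, 22.0 and 72.1 CPM. Replicate 3 was thus the highest for each of these genes, as it was for Pdgfrb. The part of mural cells in the Pdgfrb level was not tested, and in bulk libraries more cells of a type and more RNA per cell cannot be told apart.

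Contractile genes were examined in the same way. Of the 14 listed smooth muscle and myofibroblast genes, 12 were highest in replicate 3 and 6 exceeded both others by more than 2-fold. Tagln, which encodes the actin-binding protein transgelin, was at 48.4, 44.0 and 159 CPM. Myl9, a regulatory myosin light chain, was at 19.7, 23.5 and 101 CPM. The exceptions were lowest in replicate 3, with Cald1 at 57.8, 50.1 and 18.0 CPM and Tpm4 at 111, 90.3 and 54.1 CPM. Acta2 was not highest in replicate 3 either, with 4 counts there against 7 and 5. Tagln counts exceeded Acta2 counts 15.4-fold, 11.6-fold and 53.0-fold in replicates 1 to 3. Among the other actins, the cytoplasmic Actb was at 5131 ± 2002 CPM (SD, n = 3) and Actg1 at 26.5 CPM, while the muscle forms Actg2 and Acta1 were at 6.06 and 2.86 CPM.

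**Figure D2:**
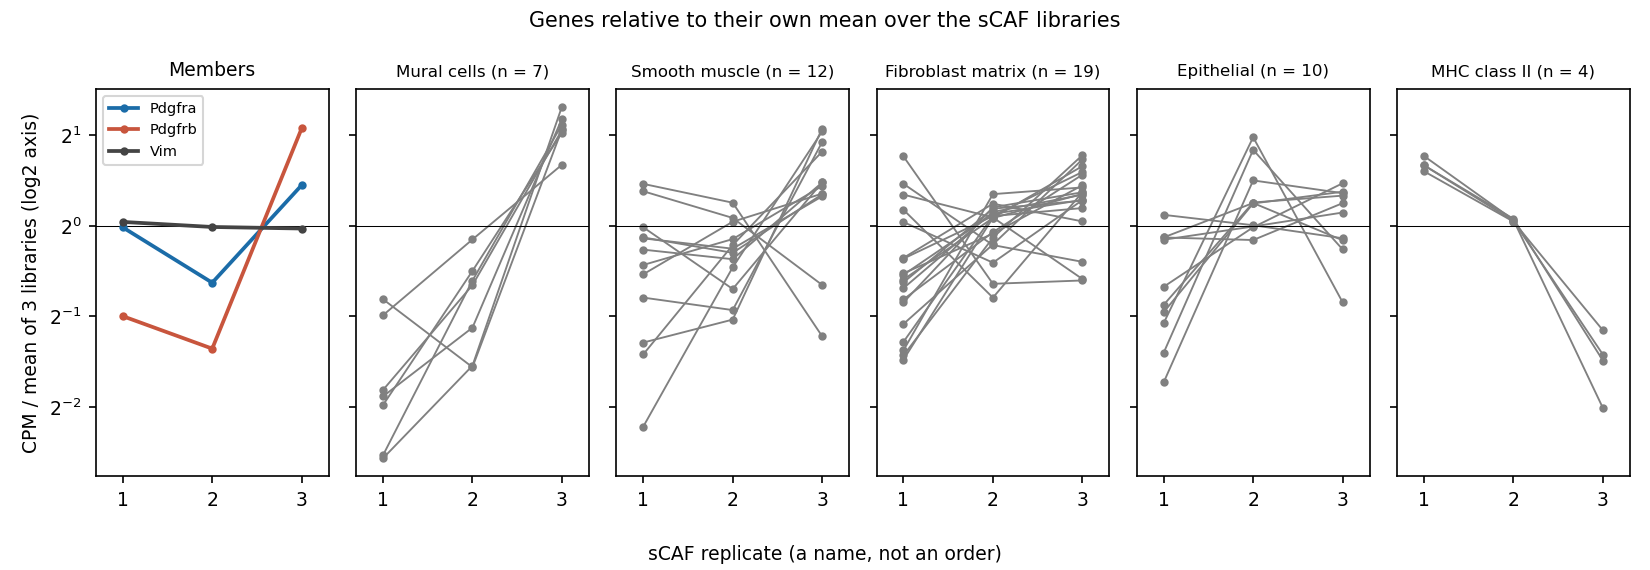
Level of single genes in each sCAF library relative to their own mean over the 3 libraries, on a log2 axis, for Pdgfra, Pdgfrb and Vim and for genes of 5 lists that exceed 3 counts in every library (n in each title). Lines join the values of 1 gene, and replicate numbers are names without an order. Pdgfrb and the mural genes are highest in replicate 3, Vim is level, and the MHC class II genes are lowest in replicate 3.

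Genes related to Fap and Pdpn were measured beside them. Of the 9 listed relatives and partners of Fap in proteolysis, 7 exceeded 3 counts in all 3 libraries (77.8%, against 74.9% of all listed genes). Dpp4, the closest relative of Fap, was at 0, 0 and 0.751 CPM. The cytoplasmic dipeptidyl peptidase Dpp9 was at 137 CPM on average, the membrane matrix metalloprotease Mmp14 at 474 CPM and the urokinase receptor Plaur at 278 CPM. Among partners of podoplanin, the membrane-cytoskeleton linkers Ezr and Msn were at 727 and 249 CPM and the tetraspanin Cd9 at 647 CPM. Of 7 podoplanin partners 6 were listed, without Clec1b, and all 6 exceeded 3 counts in every library, against 74.9% of all listed genes. Pdpn itself, whose product was gated out, did not.

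Ligands of the PDGF receptors were measured in the same libraries. Pdgfa, a ligand of PDGFRα, was at 211, 193 and 327 CPM, and Pdgfb, a ligand of both receptors, at 31.8, 33.4 and 86.3 CPM. Both were highest in replicate 3. Pdgfc, a further PDGFRα ligand, was at 42.2 CPM on average, and Pdgfd was at 0 counts in all 3 libraries. Pdgfrl, which encodes a PDGF receptor-like protein, was at 371 ± 35.8 CPM (SD, n = 3), above both receptors on the same scale.

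The fibroblast label was then checked against wider lists. Of 20 genes of fibroblast matrix and surface, all were listed, 19 exceeded 3 counts in all 3 libraries and 8 had a mean above 100 CPM. Over all listed genes these shares were 74.9% and 15.7%. Fibronectin (Fn1) was at 3049 ± 596 CPM, S100a4, a calcium-binding protein used as a fibroblast marker, at 2085 ± 641 CPM, and the matrix protein Sparc at 1011 ± 342 CPM (SD, n = 3 each). The fibrillar collagens were lower, with Col1a2 at 178, 369 and 414 CPM and Col1a1 at 46.2, 73.6 and 81.8 CPM. The proteoglycan Dcn was at 39.9, 105 and 146 CPM, and its relative Lum was at 1.05 CPM on average, below the level of 3 counts. Replicate 1 was the lowest library for Col1a2, Col1a1 and Dcn. The list summed to 7423, 8459 and 8984 CPM. Of its 20 genes 16 were highest in replicate 3, none by more than 2-fold over both other libraries.

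Genes of carcinoma or epithelial cells summed to 6308, 7523 and 7291 CPM. All 14 genes of that list were listed, and 10 exceeded 3 counts in every library (71.4%). Of the 14 genes, 6 had a mean above 100 CPM (42.9%), against 40% of the fibroblast list and 15.7% of all listed genes. In both lists a few genes carried most of the sum. The median gene had a mean of 27.0 CPM, against 77.3 CPM for the fibroblast list. The simple-epithelium keratins Krt18 and Krt8 were at 2515 ± 415 and 760 ± 67.8 CPM (SD, n = 3 each), and the secreted proteins Wfdc2 and Lcn2 at 1855 and 1315 CPM. Of the adhesion genes that define epithelia, Epcam, whose product was gated out, was at 5.83, 27.3 and 24.8 CPM and Cdh1 at 22.5 CPM on average. The claudin Cldn4 was at 207 CPM, and Cldn3 and Cldn7 were at 5.34 and 2.92 CPM. Of the other listed keratins, Krt7 was at 283 CPM, Krt19 at 31.5 CPM and Krt14 at 18.9 CPM. The basal keratin Krt5 was at 0 in all 3 libraries. Vim counts exceeded Krt18 counts 4.13-fold, 3.05-fold and 4.01-fold. Fap and Acta2, whose products were not gated, thus lay at a few counts beside abundant Krt18 and Krt8 transcripts. From these values, fibroblasts that lack these 2 markers cannot be told apart from cells that are not fibroblasts. For Acta2, the counting of reads shared by the muscle actins is also not known, and its part in the low level was not tested. The part of epithelial or carcinoma cells in the level of Vim or of the other 5 genes was not tested.

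Lists of other cell types were summed in the same libraries. The macrophage list summed to 108, 80.4 and 173 CPM, with 9 of 12 genes listed, and the endothelial list to 12.1, 22.0 and 25.5 CPM, with 6 of 9 listed. The neutrophil list summed to 166, 267 and 487 CPM, of which the protease Mmp9, made by other cells as well, gave 165, 260 and 484 CPM, while Cxcr2 and Ly6g were at 0 in all 3 libraries. Ptprc, which encodes the gated antigen CD45, was at 1.79, 0 and 1.5 CPM, and Pecam1, which encodes CD31, at 1.81 CPM on average. None of the 10 NK cell markers and none of the 5 erythroid genes was listed in the sCAF table. MHC class II genes, which mark antigen-presenting fibroblasts but also myeloid and other cells, summed to 8916, 5787 and 1962 CPM, and all 4 were lowest in replicate 3, the library with the highest Pdgfrb. All 9 genes of inflammatory fibroblasts exceeded 3 counts in each library, against 74.9% of all listed genes. Of these 9, 4 had a mean above 100 CPM (44.4%, against 15.7%), led by the neutrophil attractant Cxcl1 at 3280 ± 391 CPM (SD, n = 3). Others were low, with Cxcl12 at 28.3 CPM on average. Il6 at 12.6 CPM and Has1 at 14.7 CPM lay below the median listed gene (19.3 CPM).

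**Figure D3:**
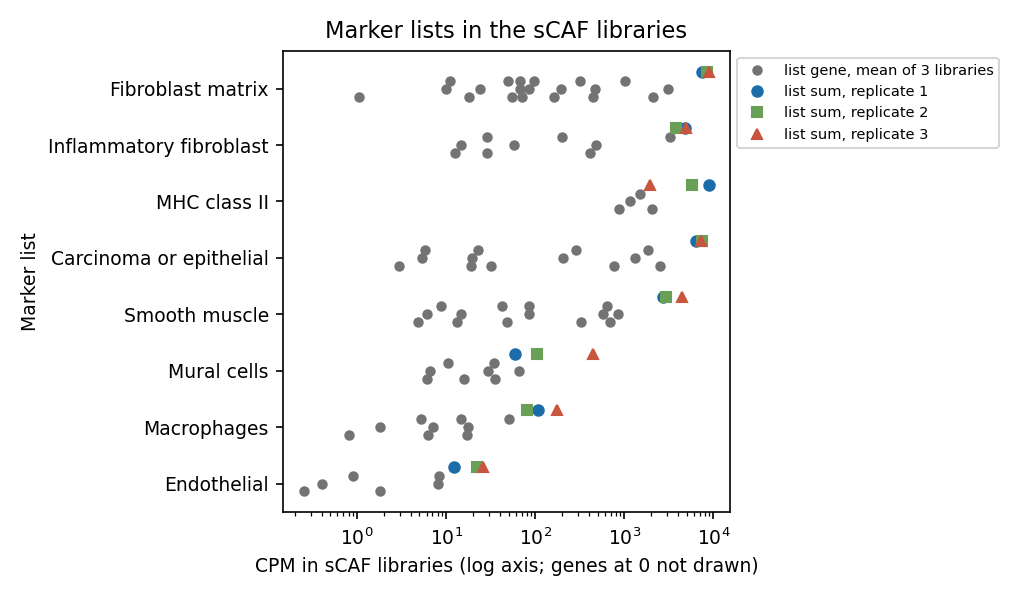
Mean CPM of each gene of 8 marker lists in the sCAF libraries (grey dots, log axis) and the sum of each list in each library (coloured marks). Fibroblast matrix and epithelial lists reach sums of the same order in all 3 libraries, the mural list spans 59.2 to 450 CPM, and the macrophage and endothelial lists stay at or below 173 CPM.

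Of the 6 genes, only Vim could be compared with NK cells. The sCAFs and tumour NK cells both came from digested 4T1 tumours, but cell kind, gate and deposited table change together and cannot be told apart. Vim stood at 901, 1061, 802 and 989 CPM in tumour NK replicates 1 to 4, with a mean of 938 ± 112 CPM (SD, n = 4), against 9502, 9141 and 9033 CPM in the sCAFs. The groups did not overlap. In edgeR's quasi-likelihood test over the 8027 genes tested, Vim was 9.96-fold higher in sCAFs (95% interval 7.90 to 12.6, log2 difference 3.32, SE 0.162, adjusted p = 1.15e-14). In this comparison 34.6% of genes were called higher and 35.9% lower in sCAFs, and for 33.6% every sCAF library exceeded every tumour NK library. Among all log2 differences that of Vim ranked 321 of 8027 from the highest. Pdgfra, Pdgfrb, Fap, Pdpn and Acta2 have no NK value and were not tested. Every gene that the NK table did list reached 6 counts or more in some library.

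Related genes differed from Vim in size and direction in the comparison of sCAFs with tumour NK cells. Of 4 intermediate filament genes tested, 3 were higher in sCAFs, namely Vim, Lmna, which encodes the nuclear lamins A and C (log2 difference 3.12, SE 0.191), and Lmnb2 (0.79, SE 0.267). Lmnb1 differed by 0.00 (SE 0.201). Both tested actins were lower in sCAFs, Actb by a log2 difference of -0.90 (SE 0.217) and Actg1 by -1.16 (SE 0.204). The median log2 difference of all genes tested was -0.01. The same lamin and actin genes were called, in the same directions, under both other scalings and without sCAF replicate 3.

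Some genes passed the filter only through the sCAF libraries, so a call for them could hardly be other than higher in sCAFs. Such calls are not counted. The counts below are limited to genes that also passed the filter in the NK libraries alone, of which there were 7598 with 31.2% called higher and 37.9% lower in sCAFs. Of 20 fibroblast matrix and surface genes, 3 could be counted. Col1a2 (log2 difference 5.06, SE 0.351) and S100a4 (1.11, SE 0.236) were higher in sCAFs. Thy1, a glycoprotein of fibroblasts and of lymphoid cells, was lower, with a log2 difference of -3.41 (SE 0.249). The same 3 genes were called in these directions without sCAF replicate 3. Fn1, Sparc, Col3a1 and Serpinf1 were among those that passed only through the sCAFs, with tumour NK means of 4.39, 4.45, 2.85 and 1.55 CPM.

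Further lists were compared under the same limit. All 4 MHC class II genes were higher in sCAFs, with H2-Aa at a log2 difference of 4.22 (SE 0.508) and its invariant chain Cd74 at 4.14 (SE 0.483), and the same 4 were called without sCAF replicate 3. Of the inflammatory fibroblast genes the cytokine Lif could be counted and was higher by 5.24 (SE 0.387), while Cxcl1, Ccl2 and C3 passed only through the sCAFs. Of 4 contractile genes, Tpm1 and Flna were higher in sCAFs and Tpm4 was lower, and without sCAF replicate 3 Cnn2 was called lower as well. Of 6 podoplanin partners, Ezr (log2 difference 0.46) and Cd9 (1.48) were higher and Rdx (-1.40) lower, and without sCAF replicate 3 Msn was called lower too. Of 3 relatives of Fap, Dpp9 was higher (0.38, adjusted p = 0.0458), though not under upper-quartile scaling. Of 3 PDGF-related genes Pdgfa passed the test (3.17, SE 0.202), and Pdgfb stood at 0.57 (adjusted p = 0.113). All edgeR p-values were adjusted over the 8027 genes.

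**Figure D4:**
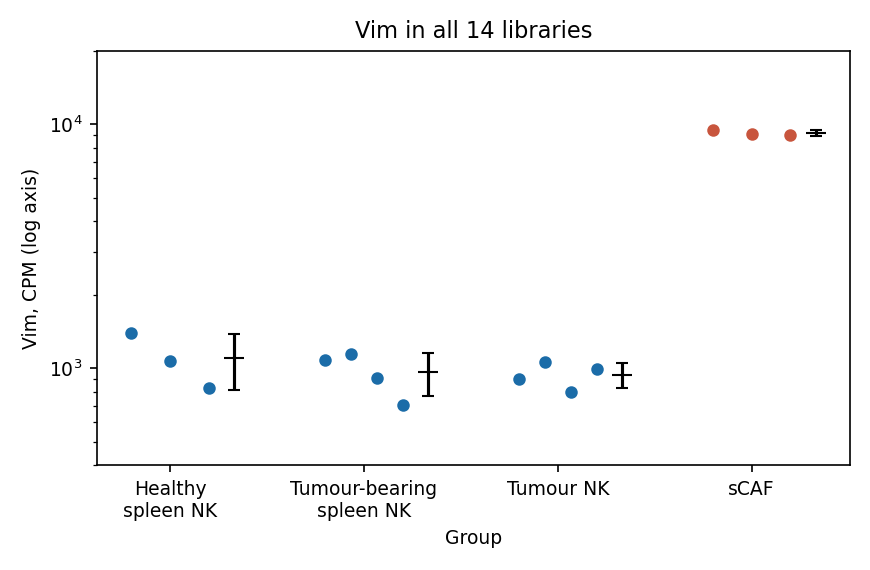
Vim CPM (log axis) in each of the 14 libraries, with the mean and SD of each group beside the points. The 3 NK groups overlap between 708 and 1401 CPM, and the 3 sCAF libraries lie between 9033 and 9502 CPM.

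Among NK cells, Vim did not separate the tissues. Its level was 1401, 1069 and 830 CPM in healthy spleens (mean 1100 ± 286 CPM, SD, n = 3) and 1079, 1147, 914 and 708 CPM in spleens of tumour-bearing mice (mean 962 ± 196 CPM, SD, n = 4). All 3 groups overlapped, and the group means differed by less than the spread within the spleen groups. Vim ranked 84 to 192 of 10210 genes across the 11 libraries, so it was an abundant transcript in NK cells too.

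The edgeR test over all 11 NK libraries and 8471 genes gave a log2 difference of 0.09 (95% interval -0.24 to 0.41, SE 0.157, adjusted p = 0.722) between tumour NK cells and NK cells of tumour-bearing spleens. In that comparison 15.8% of genes were called higher and 13.2% lower in tumour NK cells. Against healthy spleens tumour NK cells differed by -0.01 (-0.37 to 0.34, SE 0.170, adjusted p = 0.963), where 16.5% of genes were called higher and 14% lower. Between tumour-bearing and healthy spleens the difference was -0.10 (-0.45 to 0.25, SE 0.169, adjusted p = 0.903), where 1.23% were called higher and 0.354% lower. These 3 comparisons share their libraries. The 3 intervals together reach from -0.45 to 0.41, so they do not show that Vim was equal in the 3 groups. The spleen libraries fell on 2 sides of the second principal component of the NK libraries, with tumour-bearing replicates 1 and 2 and healthy replicate 1 on 1 side. Vim was at 1079, 1147 and 1401 CPM in those 3 libraries and between 708 and 1069 CPM in the other 4, so the sides touched without overlapping. With the spleen libraries of either side alone, tumour NK cells differed from tumour-bearing spleens by -0.09 and 0.25, and from healthy spleens by -0.27 and 0.10. Tumour-bearing spleens differed from healthy spleens by -0.18 and -0.14 within the sides. None of these 6 values passed the edgeR test (adjusted p from 0.196 to 0.730), and the part of the split in the Vim level was not tested. On the first side the healthy arm is 1 library, which is assumed to vary like the other groups in the fit. The sides were set on the same counts that were then tested, so p-values within a side do not hold their level.

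Other intermediate filament genes gave different values in the same fit. Lmna was higher in tumour NK cells by 3.36 (SE 0.222, edgeR adjusted p = 9.80e-09) than in tumour-bearing spleens and by 3.64 (SE 0.261, adjusted p = 2.80e-08) than in healthy spleens. Lmnb1 was higher by 0.70 (SE 0.173, adjusted p = 0.00473) and 1.42 (SE 0.208, adjusted p = 3.06e-05). Of the 4 genes of the list tested, these 2 were called in each of these comparisons. Some genes on the lists of other cell types were higher in the same tumour NK libraries and others were lower. Against tumour-bearing spleens the epithelial cadherin Cdh1 had a log2 difference of 5.13 and the myeloid genes S100a8 and S100a9 of 3.66 and 3.42. Col1a2 had 1.16 (edgeR adjusted p = 0.0468) and was not called against healthy spleens (adjusted p = 0.0587). Ccr7 and Zbtb46 of the dendritic cell list and the endothelial Pecam1 were higher too. Itgam (-0.94, macrophage list), Itgax (-0.44, dendritic cell list) and Cd3d (-0.65, T cell list) were lower. So were Mcam (-1.24) and Kcnj8 (-1.26) of the mural list. These lower genes were present in every NK library, spleens included. Their lowest levels were 159 CPM (Itgam), 160 CPM (Itgax), 23.2 CPM (Cd3d), 14.1 CPM (Mcam) and 36.5 CPM (Kcnj8). Pecam1 was present in all as well, at 48.2 CPM or more. These genes are therefore not read as markers of other cells in these libraries. Of the macrophage list only Itgam and Cd68 (0.49, not called) were tested. The neutrophil list, with 4 of 7 genes listed, summed to 55.7 to 153 CPM in tumour NK and 1.40 to 11.9 CPM in spleen NK libraries. The epithelial list, with 2 of 14 genes listed, summed to 25.0 to 51.0 CPM and 0 to 3.57 CPM. These were Cdh1 and Epcam, with means of 39.1 and 3.77 CPM in tumour NK, so the sum is mostly that of Cdh1. Krt8, Krt18, Wfdc2 and Lcn2 have no NK value. The macrophage list, with 8 of 12 genes listed, had a lower sum in tumour NK libraries, at 232 to 297 CPM against 299 to 559 CPM. Itgam carried most of that sum, with means of 195 CPM in tumour NK, 405 CPM in tumour-bearing spleen NK and 414 CPM in healthy spleen NK. Each other listed gene of the list had its highest mean in tumour NK. Cd68 was at 18.9 CPM there, against 14.7 and 9.39 CPM. Lyz2 was at 13.1 ± 15.6 CPM (SD, n = 4), against 1.98 and 0.926 CPM. Lmna itself was at 4412 CPM in the sCAFs, and the part of other cells in its NK level was not tested.

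The 5 genes most like Vim across the 11 NK libraries, by Pearson r of log2(CPM + 1) on TMM-scaled CPM, were Scyl3 (0.933), Zscan29 (0.926), Acap2 (0.926), Farp2 (0.924) and Necap1 (0.920). These values describe libraries that share depth and tissue and carry no test.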

How the data were processed

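Raw counts per gene symbol were deposited by the authors in 2 tables, 1 of 11 NK and 1 of 3 sCAF libraries. Per the submitters' processing notes bcl2fastq, STAR 2.4.2a, HTSeq and the mm10 build were used; the annotation, the handling of molecular identifiers and any filter are not given in the sources used here. The NK table lists 10210 genes, each with 6 counts or more in some library, and 12235 genes are listed for sCAFs, of which 592 are at 0 throughout; 9215 are shared. Totals are sums over listed genes. In each header a run of spaces joined a pair of column names, so those columns were read by position.

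CPM, ranks and intervals were computed in Python 3.11.15. Tests used edgeR 4.0.16 in R 4.3.3 (filterByExpr, TMM, robust quasi-likelihood, Benjamini-Hochberg adjustment, threshold 0.05). The sCAF and tumour NK libraries were fitted on the shared genes and the 11 NK libraries in 1 model. DESeq2 1.42.0, other scalings and filters, a replicate block, and each library left out were the alternatives, and the code was tested on simulated data. Positions come from GENCODE M21 (GRCm38, the mm10 assembly).

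The 6 genes, the gene lists and the spleen split were chosen with earlier results of these data known. Beside the 6, genes were named from the lists, as rank neighbours by mean sCAF CPM, and as the 5 most like Vim, and H2-D1 was chosen after its value was seen. No sequences are printed. B cell, T cell and dendritic cell lists summed to 0, at most 5.31 and at most 6.76 CPM in the sCAF libraries.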

Additional observations from a re-analysis of the deposited data

How the results depend on the processing

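The Vim difference between sCAFs and tumour NK cells stayed between 3.27 and 3.36 on the log2 scale and was called in 15 of 15 alternatives; with a replicate block it was 3.36 (edgeR adjusted p = 1.80e-09). Deviations of same-numbered libraries correlated with r = -0.043, -0.008 and -0.072 between sCAFs and tumour NK cells, -0.049 to 0.301 between tumour and tumour-bearing spleen NK cells, -0.212 to 0.051 between tumour and healthy spleen NK cells and -0.354 to 0.505 between both spleen groups. In none of the 4 comparisons did every pair exceed 0.1, so the number is not taken as a pairing. In the 3 NK comparisons Vim was called under none of the alternatives run, and its sign was not stable. Tumour NK minus tumour-bearing spleen NK gave -0.0158 under upper-quartile scaling and -0.094 with the spleen libraries of only 1 side of their second principal component (tumour-bearing replicates 1 and 2, healthy replicate 1). Tumour NK minus healthy spleen NK gave 0.0956 with only the other side, and tumour-bearing minus healthy spleen NK gave 0.0142 with the replicate block. With each library left out in turn, the values ran from -0.0255 to 0.1525, from -0.1385 to 0.105 and from -0.2242 to 0.0471 in these 3 comparisons.

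Counts of genes called moved by over 1.5 times from 1399 higher and 1183 lower in tumour NK minus healthy spleen NK to 862 and 605 with the replicate block and to 874 and 438 with the first side only, whose healthy arm is 1 library, against 1785 and 1527 with the other side; the cause was not tested. With each library left out the lower calls ran from 782, without healthy replicate 2, to 1406. In tumour-bearing minus healthy spleen NK the 104 higher and 30 lower calls became 216 and 80 on the first side, again with 1 healthy library, and 174 and 72 on the other, where the cause was not tested. The sides were set on the same counts that were then tested, so libraries within a side are alike by choice. P-values within a side therefore do not hold their level, and no conclusion is drawn from the counts of calls on either side. The higher and lower calls between the spleen groups ran from 35 to 100 and from 7 to 25 with each library left out, the lowest without healthy replicate 2. Moves over 1.5 times were also seen without healthy replicate 3 (59 higher, 8 lower) and without tumour-bearing replicates 1 (18 lower) and 4 (16 lower).

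In the sCAFs mean Vim was 10039.5 CPM on totals of shared genes only, since those totals are smaller, and its rank ran from 1 to 3 with each library left out. The rank of Pdgfrb ran from 1454 to 3785 in the same way. Depth limits Fap, Pdpn and Acta2, whose libraries hold 1 to 7 counts.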
